A study of Bos taurus with 9 samples.

Results

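The circadian clock genes described here are the 10 rows of the count table with the symbols *ARNTL*, *CLOCK*, *NPAS2*, *CRY1*, *NR1D1*, *NR1D2*, *PER1*, *PER2*, *PER3* and *DBP*, out of 28786 genes listed. They were chosen by symbol, and all 10 were found and passed the filter on low counts in every comparison. The RNA came from liver biopsies of lactating Holstein cows kept in 1 of 3 environmental conditions, with 3 cows and 3 libraries in each. Cows of the TN group were kept at thermoneutrality and ate freely, cows of the PF (pair-fed) group were kept at thermoneutrality on the feed intake of the heat-stressed cows, and cows of the HS (heat stress) group were kept in heat that was stronger by day than by night. All cows were fed and milked in the morning and in the afternoon. The sources used here give the day of the biopsies but not their hour, and they do not give the age of each cow. Each cow was sampled once, so a change in the level of a rhythmic transcript and a shift in its daily timing cannot be told apart.

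The clock of mammalian cells is a transcriptional loop. ARNTL (also called BMAL1) pairs with CLOCK or with its paralog NPAS2, and the pair binds E-box elements and activates *PER1*, *PER2*, *PER3*, *CRY1*, *NR1D1*, *NR1D2* and *DBP*. PER and CRY proteins then repress the ARNTL pair, while NR1D1 and NR1D2 (REV-ERB alpha and beta) repress *ARNTL*, *NPAS2*, *CLOCK* and *CRY1*. *CRY1* encodes a repressor but peaks late, with the genes that REV-ERB represses. In liver, feeding time is a strong cue for this loop, and glucocorticoids and body temperature are known to reset it. The members are therefore given in 2 arms below, an activator arm of 4 genes (*ARNTL*, *CLOCK*, *NPAS2* and *CRY1*) and an E-box arm of 6 genes (*NR1D1*, *NR1D2*, *PER1*, *PER2*, *PER3* and *DBP*).

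Between 16874444 and 22557047 reads per library were counted on genes. Levels are given as CPM (counts scaled to the library total) after TMM normalization, and a count of 0 allows up to 3 counts, which is 0.111 to 0.202 CPM depending on the library. This limit covers counting error only, since duplicates from PCR cannot be told apart. All 6 hepatocyte markers were detected in these libraries, and the skeletal muscle markers *ACTA1* and *MYH7* had 0 counts in every cow. The summed level of the hepatocyte markers, most of it *ALB*, ran from 13160 to 57374 CPM in TN cows, from 62459 to 94185 CPM in PF cows and from 44621 to 96402 CPM in HS cows. None of the 6 passed an unadjusted p of 0.05 in any pair of groups (edgeR). DESeq2 gave such a p for 2 of the 6 between HS and TN cows and for 2 between PF and TN cows, each lower in TN cows. The labels do not say whether cows with the same replicate number were handled together.

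*NR1D1* had the largest differences among the members in both comparisons with the HS group. Its level was 5.78, 10.6 and 13.3 CPM in TN cows, 2.18, 4.67 and 6.62 CPM in PF cows, and 14.2, 26.4 and 39.9 CPM in HS cows. Every HS cow lay above every other cow, and 2 of the 3 PF cows lay below every TN cow. The group means were 9.88 ± 3.80 (SD, n = 3) for TN, 4.49 ± 2.23 for PF and 26.8 ± 12.8 CPM for HS cows. Its paralog *NR1D2* had the same order of means with smaller fold differences, at 39.1 ± 1.63 CPM for TN, 30.7 ± 8.81 for PF and 53.1 ± 6.41 CPM for HS cows. The HS cows, at 46.0, 54.9 and 58.4 CPM, again lay above every other cow, while PF replicate 1, at 40.8 CPM, lay just above the TN cows at 37.5, 39.0 and 40.7 CPM, and the other PF cows, at 24.8 and 26.5 CPM, lay below them.

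*ARNTL* and *CRY1* stood out in the PF group. The PF cows had 14.4, 16.1 and 22.1 CPM of *ARNTL*, more than each TN cow (7.53, 9.36 and 12.0 CPM) and each HS cow (4.68, 11.3 and 12.4 CPM). *CRY1* had 11.7, 12.7 and 12.8 CPM in PF cows, against 7.46, 7.51 and 8.09 CPM in TN cows and 6.02, 6.25 and 8.56 CPM in HS cows. The TN and HS cows overlapped in both genes. *CLOCK*, whose rhythm in liver is known to be shallow, overlapped among all groups, with means of 24.5 ± 4.99 for TN, 27.4 ± 6.48 for PF and 22.9 ± 3.50 CPM for HS cows. *NPAS2* was the lowest of the members in counts, at 9 to 66 counts or 0.532 to 3.86 CPM per cow, and its groups overlapped too.

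The PER genes and *DBP*, which encodes an activator at D-box elements, were lowest on average in the PF group, except *PER2*. *PER3* had 7.20, 10.3 and 10.4 CPM in PF cows, below every TN cow at 11.8, 22.2 and 29.7 CPM. The HS cows spanned both groups in this gene, with 8.94 CPM in replicate 3 and 19.2 and 21.7 CPM in replicates 2 and 1. *PER1*, which also responds directly to glucocorticoids, had 25.1, 32.4 and 67.2 CPM in PF, 51.7, 71.0 and 119.9 CPM in TN and 46.8, 76.8 and 90.9 CPM in HS cows. The highest *PER1* and *PER3* values of all 9 cows came from TN replicate 1. *DBP* had 36.3 ± 12.3 CPM in PF, 56.2 ± 8.91 in TN and 62.2 ± 29.0 CPM in HS cows, the last of which rested on 95.6 CPM in HS replicate 2, with 44.7 and 46.1 CPM in the other HS cows. *PER2*, a gene also known to be induced by heat shock factor 1, had nearly the same mean in HS (16.7 ± 7.23 CPM) and PF cows (17.2 ± 3.71 CPM) and 24.2 ± 5.64 CPM in TN cows, and all groups overlapped. Within the HS group, replicate 3 had the lowest *PER1*, *PER2* and *PER3* of the 3 cows but not the lowest *NR1D1*.

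**Figure D1:**
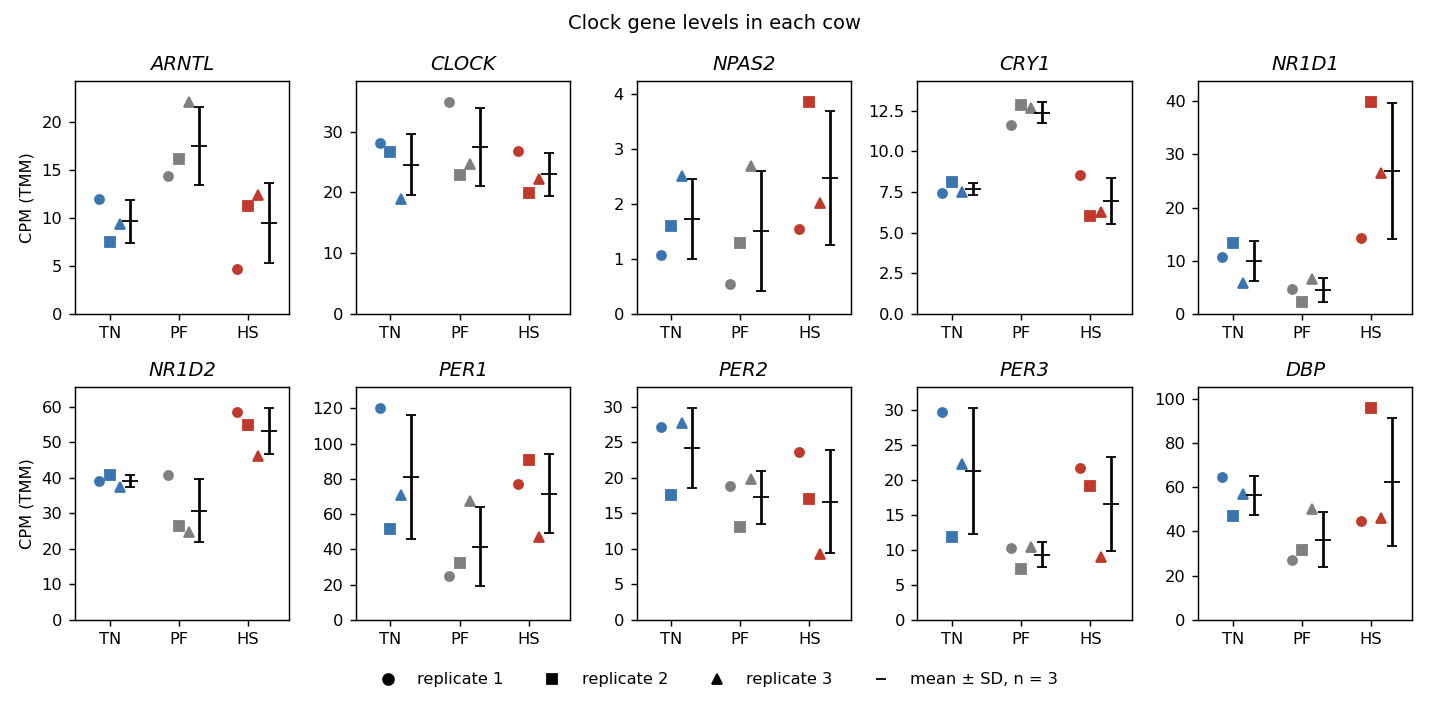
TMM-normalized CPM (y axis, linear, from 0, with its own scale in each panel) of the 10 clock genes in each cow, by group (x axis); symbols mark the replicate and the black bars give the mean ± SD of 3 cows. *ARNTL* and *CRY1* are higher in every PF cow than in any TN or HS cow, and *NR1D1* and *NR1D2* are higher in every HS cow than in any other cow.

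The arms were then set against each other within each cow, since a difference of log2 levels inside a library depends little on its scaling. The arm index is the mean log2(CPM + 0.5) of the 6 E-box genes minus that of the 4 activator genes, so it is higher where the E-box genes stand higher. It was 0.527, 0.869 and 0.979 in the PF cows, 1.72, 1.83 and 2.20 in the TN cows, and 1.58, 2.26 and 2.26 in the HS cows. Every PF cow lay below every other cow, and the TN and HS cows overlapped. The mean difference was -1.13 between PF and TN cows and 1.24 between HS and PF cows, both larger than the SD within groups, which was 0.254 for TN, 0.236 for PF and 0.390 for HS cows. Between HS and TN cows it was 0.117, less than this SD, and it turned to -0.13 when *NR1D1* was left out. The PF mean differed from the TN mean by -0.78 in the E-box arm (4.16 ± 0.343 against 4.94 ± 0.272) and by 0.35 in the activator arm (3.37 ± 0.242 against 3.02 ± 0.0293). No p is given for the index, since the members were chosen with earlier results of these data known.

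The count ratio of *NR1D1* to *ARNTL*, a repressor and the gene it represses, separated all 3 groups without overlap. It was 0.135, 0.30 and 0.325 in PF cows, 0.618, 0.881 and 1.76 in TN cows, and 2.14, 3.03 and 3.53 in HS cows. The ratio of *NR1D1* to *CRY1* kept the same order, from 0.170 to 0.522 in PF, from 0.770 to 1.64 in TN and from 1.66 to 6.62 in HS cows. So did that of *NR1D1* to *CLOCK*, a gene whose groups overlapped. It was 0.0956 to 0.268 in PF, 0.307 to 0.498 in TN and 0.531 to 2.01 in HS cows. In the ratio of *NR1D2* to *ARNTL* the TN cows (3.24 to 5.41) and the HS cows (3.72 to 12.5) overlapped. Such ratios also carry the lengths of both genes, so only their differences between cows are read. For *DBP* to *ARNTL* the PF cows, at 1.88 to 2.27, lay below all others, while the TN cows at 5.38 to 6.23 lay inside the HS range of 3.73 to 9.55.

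**Figure D2:**
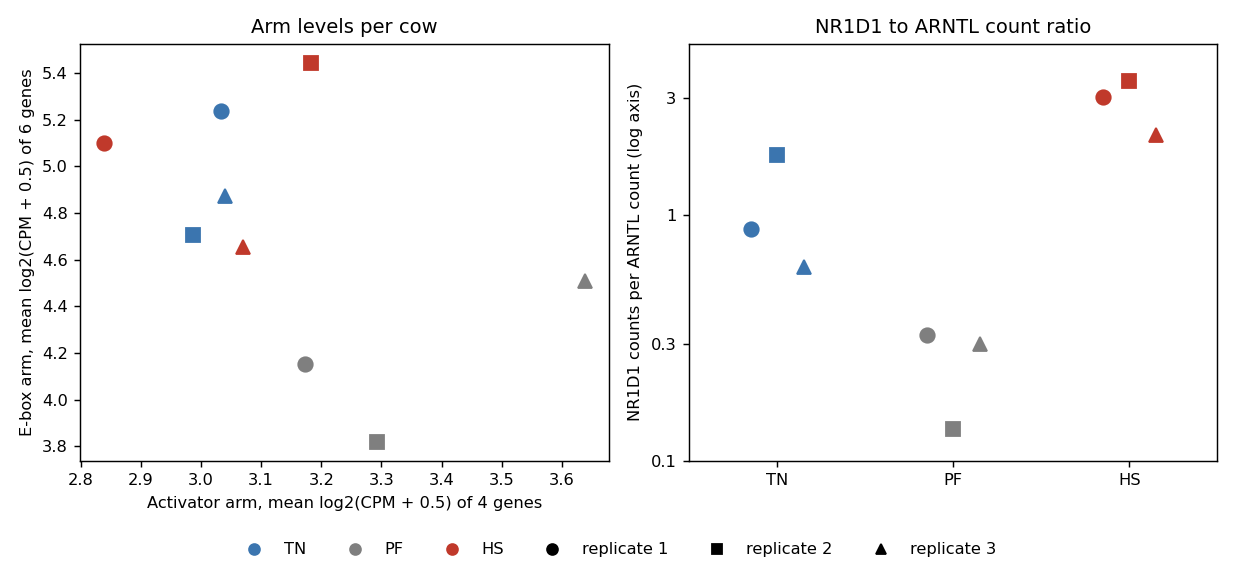
Left, mean log2(CPM + 0.5) of the activator arm (x axis) and of the E-box arm (y axis) in each cow, with colours for groups and symbols for replicates; right, the *NR1D1* to *ARNTL* count ratio of each cow on a log axis, by group. On the left every PF cow lies below every TN and HS cow, and 2 of the 3 also lie to the right of all of these; on the right the groups follow the order PF, TN, HS without overlap, from 0.135 to 3.53.

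The groups were tested in pairs by edgeR's quasi-likelihood F test, each on its 6 libraries, and a DEG had an FDR under 0.1 (Benjamini-Hochberg over all genes tested) and changed more than 1.5-fold. Differences are given as log2FC, the log2 of the fold change. By these criteria 0 of the 10 clock genes were DEGs in any pair, where edgeR called 0.0892% of all genes in the HS/TN pair, 0.0276% in the HS/PF pair and 0% in the PF/TN pair. DESeq2, run as an alternative, called 1 member, *NR1D1*, in either pair with HS cows and 0 members in the PF/TN pair. Of all genes DESeq2 called 1.75%, 0.771% and 0.555% in the same order of pairs. With edgeR, the members with an unadjusted p under 0.05 numbered 1 in the HS/TN pair (9.36% of all genes, or 4.13% higher in HS cows as this member was), 6 in the HS/PF pair (5.32%) and 6 in the PF/TN pair (6.88%). Both comparisons with the PF group use the same PF cows, so they are not independent of each other.

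Comparing PF with TN cows addresses the lower feed intake without heat, though a difference in when the cows ate cannot be told apart from it. Of the E-box arm, all 6 genes had a lower mean in PF cows and 4 had an unadjusted p under 0.05, as did 3.89% of all genes in this direction. The 4 were *PER3* (log2FC -1.19, SE 0.35), *NR1D1* (-1.14, SE 0.44), *PER1* (-0.97, SE 0.41) and *DBP* (-0.63, SE 0.29), with edgeR FDRs between 0.693 and 0.708. Of the activator arm, *ARNTL* (log2FC 0.86, SE 0.29) and *CRY1* (0.69, SE 0.26) had a higher mean in PF cows with an unadjusted p under 0.05, as did 2.99% of all genes in this direction. The 95% confidence interval of *CLOCK*, from -0.43 to 0.75 on the log2 scale, and that of *NPAS2*, from -1.75 to 1.37, leave changes of either sign possible. The median log2FC was -0.80 in the E-box arm and 0.42 in the activator arm, beside -0.01 over all genes. The groups did not overlap in 3 members (*ARNTL*, *CRY1* and *PER3*) and in 13.2% of all genes.

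The PF against TN counts depended on single cows. Without TN replicate 1, 3 members (*ARNTL*, *CRY1* and *PER3*) had an unadjusted p under 0.05, and without PF replicate 2 these were *ARNTL* and *PER3*, 2 members. The log2FC of *PER1* ran from -1.49 to -0.56 with 1 cow left out, and that of *NR1D1* from -1.53 to -0.80. Without the filter on low counts edgeR called *PER3* (FDR 0.0962). The hepatocyte marker sum given above also did not overlap between PF and TN cows, and that of the erythroid markers was 3.40 to 22.3 CPM in TN and 0 to 2.14 CPM in PF cows. Their part in these differences was not tested, and in whole tissue fewer cells of a type and less RNA per cell cannot be told apart.

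HS and PF cows were matched in the amount of feed by design, so this pair addresses the heat at a matched intake. When the cows ate on the day of the biopsies is not given in the sources used here. Heat and the timing of eating therefore cannot be told apart in this pair. *NR1D1* was 5.93-fold higher on average in HS than in PF cows, a log2FC of 2.57 (SE 0.45) with an unadjusted p of 1.40e-04 and an FDR of 0.127 (edgeR), which placed it 16th of 14510 genes by p. DESeq2 gave a log2FC of 2.58 (SE 0.43) with an FDR of 4.39e-06. In the fits that left out 1 cow each, the log2FC ran from 2.17 to 2.97 and the FDR from 0.0800 to 0.462 (edgeR), with a call only without HS replicate 1. In the same direction were *NR1D2* (log2FC 0.79, SE 0.25), *PER3* (0.83, SE 0.34) and *DBP* (0.77, SE 0.34), each with an unadjusted p under 0.05, so that 4 of the 6 E-box genes did so, as did 3.07% of all genes. *PER1* had a similar log2FC of 0.78 (SE 0.37) but an interval that included 0, from -0.04 to 1.60. *PER2* had one of -0.05 (SE 0.33), with an interval from -0.78 to 0.68.

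Of the activator arm, *ARNTL* and *CRY1* went the other way in this pair, while *NPAS2* did not. *ARNTL* had a log2FC of -0.91 (SE 0.36) and *CRY1* of -0.83 (SE 0.26) in HS against PF cows, with FDRs of 0.832 and 0.642 (edgeR) and an unadjusted p under 0.05, as had 2.25% of all genes in this direction. *CLOCK* had a log2FC of -0.26 (SE 0.24) and *NPAS2* of 0.70 (SE 0.65). The groups did not overlap in 4 members, which were *NR1D1*, *NR1D2*, *ARNTL* and *CRY1*, and in 10.5% of all genes. With 1 cow left out, between 4 and 7 members had an unadjusted p under 0.05, and *NR1D1*, *NR1D2* and *CRY1* did so in all 6 fits, while *ARNTL* did not without PF replicate 3 or without HS replicate 1. The log2FC of *DBP* was 0.32 without HS replicate 2.

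The macrophage markers moved along with this pair. The summed level of *CD68*, *MARCO*, *CD163* and *CLEC4F* was 289 to 537 CPM in HS and 141 to 258 CPM in PF cows. These ranges did not overlap. Of the 4 markers, 3 had a higher mean in HS cows with an unadjusted p under 0.05 (edgeR). The share over all genes in this direction was 3.07%, and none of the markers was a DEG. In TN cows the sum was 152 to 299 CPM. The summed level of the 13 mitochondrial genes, in turn, was 44257 to 61735 CPM in HS, 72976 to 77451 CPM in PF and 141654 to 197391 CPM in TN cows, without overlap. The part of either sum in the *NR1D1* difference was not tested. *NR1D1* also overlaps *THRA*, a thyroid hormone receptor gene, according to RefSeq (assembly ARS-UCD2.0), and the strand setting of the counting is not given in the sources used here. *THRA* had 44.9, 28.6 and 48.0 CPM in PF replicates 1 to 3 and 37.3, 48.3 and 60.4 CPM in HS replicates 1 to 3, with a log2FC of 0.26 (SE 0.27) for HS against PF cows. Its groups overlapped there, unlike those of *NR1D1*, but *THRA* was higher in every HS cow than in every TN cow (log2FC 0.76, SE 0.27). In the same annotation *CRY1* overlaps *LOC107132502*, *PER2* overlaps *LOC132344956* and *NPAS2* overlaps *LOC107132896*. The last of these had 3 counts in TN replicate 3 and 0 in every other cow, and the others were not analysed here.

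**Figure D3:**
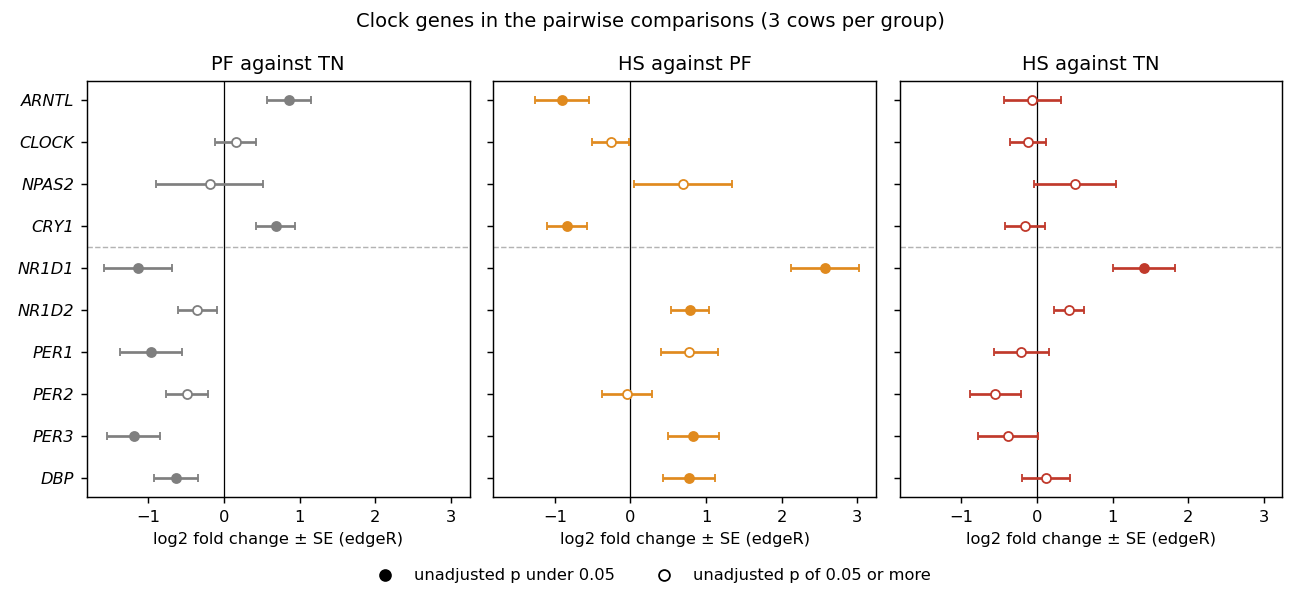
Log2FC ± SE (x axis, edgeR, 3 cows per group) of the 10 clock genes (y axis) in the 3 pairwise comparisons; filled points have an unadjusted p under 0.05, and the dashed line divides the activator arm (top) from the E-box arm. *ARNTL* and *CRY1* lie to the right of 0 for PF against TN and to the left for HS against PF, *NR1D1*, *PER3* and *DBP* do the opposite, and *NR1D1* alone is filled for HS against TN.

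Between HS and TN cows, which differed in both heat and intake, the REV-ERB genes were the members that separated. *NR1D1* was 2.67-fold higher on average in HS cows, a log2FC of 1.42 (SE 0.41) with an FDR of 0.392 with edgeR and of 0.0484 with DESeq2. It ran from 1.03 to 1.73 when 1 cow was left out, always with an unadjusted p under 0.05. The study, which used DESeq2, also lists *NR1D1* among the transcription factors that were DEGs between these groups, higher in HS cows. Some markers of other cell types also differed in this pair. The macrophage marker *MARCO* was 2.73-fold higher in HS cows and the erythroid marker *HBB* 16.5-fold lower, both without overlap and both called by DESeq2 (FDR 0.0119 and 2.95e-07) but not by edgeR (FDR 0.381 and 0.163). Of the 4 macrophage markers only *MARCO* had an unadjusted p under 0.05 (edgeR), as had 4.13% of all genes in this direction. *CLEC4F* had a lower mean in HS cows (log2FC -0.86, SE 1.07). The macrophage sums overlapped, at 289 to 537 CPM in HS and 152 to 299 CPM in TN cows. The erythroid sum was 0.336 to 1.25 CPM in HS and 3.40 to 22.3 CPM in TN cows, and the part of these markers in the *NR1D1* difference was not tested. *NR1D2* had a log2FC of 0.43 (SE 0.20), with an interval from -0.02 to 0.88. The groups did not overlap in these 2 of the 10 members and in 16.1% of all genes, so the share of members was near the background. For the other 8 members the log2FCs ran from -0.55 (SE 0.34) for *PER2* to 0.50 (SE 0.55) for *NPAS2*. The intervals of *ARNTL* (-0.90 to 0.78), *CRY1* (-0.76 to 0.44), *PER1* (-1.02 to 0.61), *PER3* (-1.27 to 0.51) and *DBP* (-0.60 to 0.84) are wide, so these data do not show that HS and TN cows were alike in them.

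In a test of all 3 groups together on the 9 libraries, 0 members passed an FDR of 0.1 (edgeR), where 0.0464% of all genes did. The smallest FDR was that of *NR1D1*, 0.148, 27th of 15073 genes by p, and the likelihood ratio test of DESeq2 gave it an FDR of 8.91e-05 and called 1.6% of all genes. *NR1D1*, *NR1D2*, *ARNTL*, *CRY1* and *PER3* had an unadjusted p under 0.05 in edgeR, 5 of the 10 members beside 7.86% of all genes. For *ARNTL* and *CRY1* the order of means was PF, TN, HS from high to low, with TN and HS means closer than the SD of the HS cows. For *NR1D1* and *NR1D2* the order was HS, TN, PF.

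A wider list of 11 other clock regulators had 9 genes with enough counts between HS and TN cows and 8 in the other pairs. *ARNTL2* had 0 counts in every cow and *RORB* at most 5. *RORA*, a nuclear receptor gene, had means of 62.2 ± 9.79, 61.2 ± 27.4 and 69.8 ± 8.52 CPM in TN, PF and HS cows. *TEF*, a D-box activator like DBP, was 30.5 to 34.0 CPM in HS cows, above both the PF cows at 17.9 to 23.5 CPM and the TN cows at 21.5 to 29.2 CPM, and its log2FC of HS against PF was 0.64 (SE 0.21, FDR 0.669, edgeR). *HLF*, the other activator of that family, had 43.2 ± 3.23, 60.7 ± 3.95 and 46.4 ± 7.38 CPM in TN, PF and HS cows. Its mean was thus highest where those of *DBP* and *TEF* were lowest, and each PF cow exceeded each TN and HS cow. Groups did not overlap in 13.2% of all genes in the PF/TN pair and in 10.5% in the HS/PF pair. The interval of *HLF* included 0 in both pairs. It was -0.02 to 1.00 for PF against TN and -0.88 to 0.09 for HS against PF. In this list an unadjusted p under 0.05 was found for 0 of 9 genes in the HS/TN pair and 1 of 8 in the HS/PF pair (*TEF*). In the PF/TN pair it was 1 of 8, and 0 were DEGs by edgeR in any pair. The shares over all genes were 9.36%, 5.32% and 6.88% in the same order of pairs. The gene of the PF/TN pair was *CRY2*, the paralog of *CRY1*, with a log2FC of -1.14, SE 0.41 and overlapping groups. TN replicate 1 had 40.9 CPM of *CRY2*, against 13.8 and 19.2 CPM in the other TN cows.

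A further list held 7 genes for kinases and ubiquitin ligase parts that set the stability of PER and CRY proteins. None had an unadjusted p under 0.05 between HS and PF cows (edgeR), as did 5.32% of all genes. Only *FBXL21* did in the HS/TN pair (9.36% of all genes) and in the PF/TN pair (6.88%). *FBXL21*, whose product marks CRY proteins, had 28.0, 40.4 and 56.1 CPM in PF cows and 19.5, 23.1 and 26.2 CPM in TN cows, without overlap, a log2FC of 0.85 (SE 0.29, FDR 0.697, edgeR). The median log2FC of this list was 0.06 in the HS/TN pair, -0.09 in the HS/PF pair and 0.18 in the PF/TN pair.

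Of 10 genes listed as clock outputs of the liver, 0 were DEGs by edgeR. An unadjusted p under 0.05 was found for 1 in the HS/TN pair, 2 in the HS/PF pair and 3 in the PF/TN pair. The shares over all genes were 9.36%, 5.32% and 6.88% in these pairs. *HMOX1* was the gene of the HS/TN pair and 1 of the 2 of the HS/PF pair. The study counts it, together with *NR1D1* and other genes, among regulators of the antioxidant response. *NOCT*, which encodes the rhythmic enzyme nocturnin, had 0.592, 0.949 and 3.21 CPM in PF cows and 3.45, 4.51 and 6.57 CPM in HS cows, a log2FC of 1.60 (SE 0.60, FDR 0.798, edgeR) for HS against PF. Heme is the ligand of NR1D1, and *ALAS1* and *HMOX1* encode the enzymes that start its synthesis and its breakdown. In the PF/TN pair the 3 genes were *ALAS1*, *NOCT* (log2FC -1.59, SE 0.70) and *CYP7A1* (-1.89, SE 0.71), the rate-limiting enzyme of bile acid synthesis. The groups overlapped in *NOCT* and *CYP7A1*, and TN replicate 1 stood high in both. It had 8.71 CPM of *NOCT*, against 2.35 and 3.22 CPM in the other TN cows. For *CYP7A1* it had 385 CPM, against 73.3 and 148 CPM. *ALAS1* was lower in every PF cow (78.1, 133 and 198 CPM) than in every TN cow (257, 284 and 304 CPM), with a log2FC of -1.05 (SE 0.37, FDR 0.697, edgeR). *HMOX1* was higher in every HS cow (124, 242 and 296 CPM) than in every other cow, with PF cows from 76.5 to 97.2 CPM and TN cows from 56.1 to 104 CPM. Its log2FC was 1.53 (SE 0.38, FDR 0.315) against TN and 1.35 (SE 0.32, FDR 0.377) against PF cows in edgeR, and DESeq2 called both.

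Genes that respond to glucocorticoids, a cue for the clock, did not move as 1 group between HS cows and either other group. Of the 7 in the list, 2 in the HS/TN pair and 2 in the HS/PF pair had an unadjusted p under 0.05 (edgeR). In both pairs these were 1 in each direction. In the PF/TN pair 0 did, but all 7 had a lower mean in PF cows. Their median log2FC was -0.36 there, beside -0.01 over all genes. An unadjusted p under 0.05 was found for 9.36%, 5.32% and 6.88% of all genes in the same order of pairs. *FKBP5*, a cochaperone of the glucocorticoid receptor, had 23.7, 26.6 and 55.7 CPM in HS cows, above every PF cow (6.37 to 12.9 CPM) and every TN cow (7.78 to 21.2 CPM). Its log2FC was 1.94 (SE 0.38, FDR 0.183) for HS against PF and 1.35 (SE 0.42, FDR 0.417) for HS against TN cows (edgeR), and DESeq2 called both. *SGK1*, a kinase gene, was lower in every HS cow (38.5, 65.0 and 73.7 CPM) than in every PF (79.9 to 123 CPM) and TN cow (98.8 to 145 CPM), with log2FCs of -0.68 (SE 0.30, FDR 0.908) and -1.03 (SE 0.30, FDR 0.394) in edgeR, and DESeq2 called it against TN cows. *TSC22D3* had nearly the same mean in all groups, 55.4 ± 12.8, 53.4 ± 2.22 and 54.2 ± 16.8 CPM in TN, PF and HS cows.

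**Figure D4:**
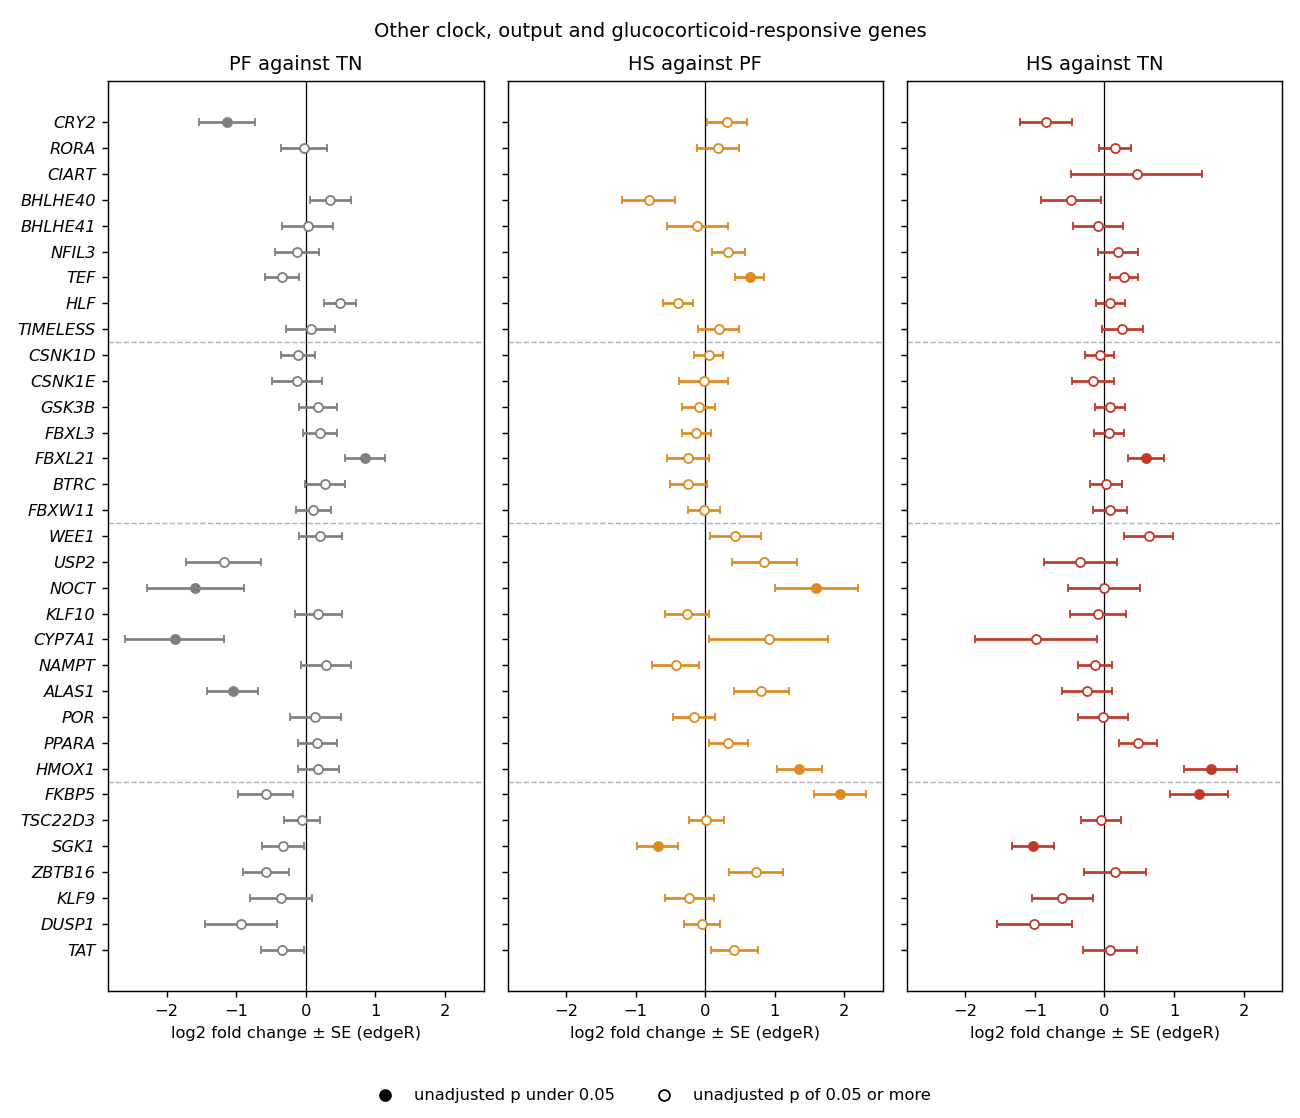
Log2FC ± SE (x axis, edgeR, 3 cows per group) of the other genes (y axis), with dashed lines dividing, from the top, clock regulators, kinases and degradation, clock outputs, and glucocorticoid-responsive genes; filled points have an unadjusted p under 0.05, and a gene without a point had too few counts in that pair. Against both other groups HS cows have *SGK1* to the left and *HMOX1* and *FKBP5* to the right of 0, and most points of the kinase and degradation group lie near 0.

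Likeness to *NR1D1* was measured as the Pearson correlation of log2(CPM + 0.5) over the 9 cows, across 13556 other genes with a mean of at least 1 CPM, and is given as a description, since cows of a group share their treatment. Taken within groups, as deviations from the group means, the correlations of the genes named were weaker, from 0.46 for *ZNF330* to 0.84 for *QPCTL* among the similar ones. The 5 most similar genes were *ASTE1* (0.94), *APOBEC2* (0.93), *QPCTL* (0.93), *HTR2B* (0.91) and *ZNF330* (0.90), and the 5 most opposite were *RAD50* (-0.94), *MAD2L1* (-0.92), *MYO1E* (-0.91), *NPR3* (-0.90) and *PODXL2* (-0.90). *APOBEC2* had 0.717 ± 0.290 CPM in PF, 1.79 ± 0.709 in TN and 6.10 ± 1.88 CPM in HS cows. Among the clock genes, *CRY1* (-0.84) was the 26th most opposite of all these genes, and *NR1D2* (0.75) and *DBP* (0.70) were the 117th and the 208th most similar. *PER2* (-0.18) was not close to *NR1D1* by this measure.

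For *ARNTL*, the 5 most similar genes were *PLEKHJ1* (0.98), *FGF1* (0.92), *LOC104969299* (0.89), *NBR1* (0.87) and *BSDC1* (0.87), and the 5 most opposite were *RCSD1* (-0.97), *PLEKHA8* (-0.93), *ABCB11* (-0.93), *SCIMP* (-0.92) and *TMX3* (-0.89). *FGF1*, a growth factor gene, had 14.96 ± 2.79 CPM in PF, 8.36 ± 2.56 in TN and 7.05 ± 1.47 CPM in HS cows. *ABCB11*, the bile salt export pump, had 311 ± 88.2 CPM in PF, 518 ± 111 in TN and 536 ± 154 CPM in HS cows. Of the clock genes, *NR1D2* (-0.75) was the 94th most opposite to *ARNTL*, while *NR1D1* (-0.38) was only the 1742nd. *CRY1* (0.48) was the 618th most similar to *ARNTL*. *CLOCK*, the partner of *ARNTL*, had a correlation of 0.01 with it.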

How the data were processed

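Liver biopsies of 9 lactating cows, 3 per group, were sequenced by the authors as poly(A) RNA in paired-end mode. The deposited table gives raw counts by gene, not normalized, which the authors made per the methods and labels with fastp 0.23.2, STAR 2.7.9a against ARS-UCD1.2 and featureCounts 2.0.3. The annotation release and the strand and multi-mapping settings are not given in the sources used here. All 9 columns were mapped to cows by their labels.

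With edgeR 4.0.16 (R 4.3.3), the 6 libraries of each pair were fitted after TMM normalization and filterByExpr, and quasi-likelihood F tests were adjusted by Benjamini-Hochberg across the genes kept. DEGs passed an FDR of 0.1 and changed more than 1.5-fold, as in the study, whose tool, DESeq2 (version 1.42.0), was an alternative. Confidence intervals (95%) of log2 fold changes come from the same fit. CPM used TMM factors of all 9 libraries, with an offset of 0.5 CPM on the log2 scale. P-values measure the spread between cows, each sampled once. Both tools were run beforehand on simulated data. That run set a limit only on the median log2FC recovered, so it cannot decide between the calls of the tools.

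The members, arms and gene lists were chosen with earlier results of these data known. All members are described. A gene was dropped from the wider lists and is not reported here. Of the other lists, genes are named where a DEG, or where the unadjusted p was under 0.05 and the groups did not overlap. *HLF*, *RORA*, *TSC22D3*, *RORB*, *ARNTL2*, *CRY2*, *CYP7A1*, *THRA* and *NOCT* (PF against TN) fall outside this rule and were named after their values were seen, and the other genes of these lists are covered by counts and medians. The RefSeq table of ARS-UCD2.0, in which all 10 members were found, served only to name overlapping genes. Promoter motifs were to be searched, but promoter sequences were not used here.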

Additional observations from a re-analysis of the deposited data

How the results depend on the processing

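The number of clock genes called was 0 with edgeR in each pair and in the test of all groups, and it moved to 1 with DESeq2 for HS and TN, HS and PF and the 3 groups together, and to 1 without the filter on low counts for HS and PF (*NR1D1*), PF and TN (*PER3*) and the 3 groups (*NR1D1*). With 1 cow left out it ranged from 0 to 1 for HS and PF (1 without HS replicate 1) and from 0 to 1 for the 3 groups (1 without TN replicate 2). The number with an unadjusted p under 0.05 then ranged from 1 to 2 for HS and TN (2 without HS replicate 1 or 3), from 4 to 7 for HS and PF, and from 2 to 6 for PF and TN. The arm index difference of HS and PF was 1.72 with medians in place of means. Over all genes, DEGs numbered 13, 4 and 0 for HS and TN, HS and PF, and PF and TN with edgeR, 270, 122 and 91 with DESeq2, and 124, 98 and 136 without the filter.

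Signs of member log2FCs turned only where 1 cow was left out, in genes whose intervals included 0. The log2FC then ran for HS and TN from -0.30 to 0.28 in *ARNTL*, from -0.28 to 0.012 in *CLOCK*, from -0.43 to 0.22 in *PER1* and from -0.32 to 0.32 in *DBP*. It ran for HS and PF from -0.40 to 0.24 in *PER2*, and for PF and TN from -0.046 to 0.28 in *CLOCK* and from -0.90 to 0.21 in *NPAS2*. The cause was not tested.

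The deviations of same-numbered cows correlated between -0.22 and 0.24. From so few cows per group, these values cannot decide whether cows with the same replicate number were handled together. With the replicate number as a block, 1, 4 and 5 members had an unadjusted p under 0.05 for HS and TN, HS and PF, and PF and TN, 0 were called, and 33, 6 and 1 of all genes were DEGs.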
